A study of Mus musculus with 6 samples.

Results

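Of the 22180 genes with a named probe set on these arrays, 6 are described here: Rsad1, Nags, C130046K22Rik, Rapgefl1, Igfbp4 and B4galnt2, all on chromosome 11 in the neighbourhood of Tbx21, the gene of the transcription factor T-bet. They were picked from the genes within 10 Mb of Tbx21 because their signals differed between T-bet knockout and wild-type arrays, so their group differences are given as descriptions and carry no test. Each gene was read from its probe set of highest mean over the 6 arrays. RNA came from megakaryoerythroid progenitors (MEP), marrow cells committed to the red cell and megakaryocyte lineages, stained with antibodies and sorted by flow cytometry. Of the 6 arrays, 3 are labelled T-bet knockout and 3 wild type, each from a different mouse according to the series' design. All 6 carry the strain label C57BL/6, no treatment is given for either group, and neither label nor design text gives the age of the mice, how the knockout allele was built or the strain in which it was made. In such sorted samples, fewer cells of a type and less RNA per cell cannot be told apart.

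Genes that lie close together on a chromosome are usually inherited together, so the DNA around a targeted gene passes on with the targeted allele in a breeding line. Genes that lie close together need not share a function, and these 6 belong to unrelated pathways. Whether any of the 6 lies in DNA passed on with the knockout allele is unknown here and was not tested. Nags encodes N-acetylglutamate synthase, which makes the activator of the first enzyme of the urea cycle. Rsad1 encodes a radical S-adenosylmethionine (SAM) family protein related to the bacterial heme chaperone HemW, and B4galnt2 the glycosyltransferase that adds N-acetylgalactosamine to form the Sda carbohydrate antigen. Igfbp4 encodes a secreted protein that binds insulin-like growth factors and limits their action, Rapgefl1 a protein similar to the exchange factors of RAP GTPases, and C130046K22Rik is a long non-coding RNA.

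In the order of measured genes along the chromosome, Rsad1 and B4galnt2 lay on 1 side of Tbx21, 74 and 36 genes away. Rapgefl1 and Igfbp4 lay 52 and 58 genes away on the other side, and Nags and C130046K22Rik 184 and 231 genes away on that side. The RefSeq promoter table (GRCm38.p6) held a start site for each of the 6. The 250 bases before it are shown for the gene with the largest negative difference (Rsad1), for the gene with the largest positive difference (Rapgefl1), and for the pair of genes whose window held one of the motifs searched. Capitals mark those matches.
Rsad1, chr11:94549208-94549457, minus strand: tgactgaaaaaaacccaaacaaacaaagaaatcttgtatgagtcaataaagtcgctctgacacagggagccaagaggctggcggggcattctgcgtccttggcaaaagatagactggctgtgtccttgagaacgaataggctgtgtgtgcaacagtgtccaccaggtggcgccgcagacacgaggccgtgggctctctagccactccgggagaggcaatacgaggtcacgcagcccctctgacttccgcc
Rapgefl1, chr11:98836535-98836784, plus strand: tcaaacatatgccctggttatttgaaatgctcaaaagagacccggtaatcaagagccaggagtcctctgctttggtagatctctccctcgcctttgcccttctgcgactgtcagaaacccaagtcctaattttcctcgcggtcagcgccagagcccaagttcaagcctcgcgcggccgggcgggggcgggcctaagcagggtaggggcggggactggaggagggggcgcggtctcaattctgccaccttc
Nags, chr11:102145263-102145512, plus strand: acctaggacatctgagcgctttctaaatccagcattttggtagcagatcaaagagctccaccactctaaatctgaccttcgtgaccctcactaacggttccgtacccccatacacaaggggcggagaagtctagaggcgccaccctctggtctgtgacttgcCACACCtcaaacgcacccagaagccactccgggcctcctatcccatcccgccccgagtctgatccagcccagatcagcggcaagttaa
Igfbp4, chr11:99040994-99041243, plus strand: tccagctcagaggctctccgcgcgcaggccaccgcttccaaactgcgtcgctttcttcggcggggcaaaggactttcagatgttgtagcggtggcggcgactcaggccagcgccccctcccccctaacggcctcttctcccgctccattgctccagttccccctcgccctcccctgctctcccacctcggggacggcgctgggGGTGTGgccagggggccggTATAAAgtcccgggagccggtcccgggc
The motifs, read on both strands, were the T-box half-site AGGTGTGA, its core GGTGTG, which every half-site contains, the GATA forms AGATAA and TGATAA, and the TATA box letters TATAAA. The core was found in the Nags and Igfbp4 windows, where 16.3% of the 32851 windows of the table hold it, and TATAAA in the Igfbp4 window alone among the 6 (12.4% of all windows). AGGTGTGA (1.12% of all windows), AGATAA (9.99%) and TGATAA (7.94%) were in none of the 6. The Igfbp4 and C130046K22Rik windows held 22 CpG dinucleotides each and the other four 11 to 18, against a median of 6 over all windows. A match is a description of letters only.

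Values are log2 signals, and ± gives the SD of a group's 3 arrays. Array medians lay between 6.44 and 6.53, and arrays of a group correlated at 0.980 to 0.987 across probe sets, arrays of different groups at 0.982 to 0.987. For Tbx21 itself the knockout arrays, in replicate order, read 6.41, 6.60 and 6.46, and the wild-type arrays 6.54, 6.62 and 6.60. These ranges overlapped, and the exons that its probe set covers are unknown here, so the targeted gene could not serve as a check on genotype. Of the MEP marker list 14 genes were measured, with a mean signal of 10.01 to 10.11 in knockout and 10.06 to 10.10 in wild-type arrays and 0 in the lowest 30% of probe sets by mean (called dim below). Of the 14, 9 had a positive and 5 a negative difference, with a median of 0.02. Of the negative ones, Itga2b (integrin chain CD41) read 7.25, 7.15 and 7.34 in knockout and 7.50, 7.41 and 7.86 in wild-type arrays. The platelet factor gene Pf4, like Itga2b a megakaryocyte gene, differed by -0.48 (SE 0.21). Of the positive ones, Cd36 differed by 0.23 (SE 0.10). Itga2b itself lies in the window, 199 genes from Tbx21. Between same-numbered arrays the mean of the B cell marker list was higher in the knockout by 0.17, 0.29 and 0.44 (7 of 8 genes positive, median difference 0.29). That of the stem and multipotent progenitor list differed by -0.15, -0.08 and -0.13 (6 of 7 negative, median -0.13). The part of these cells in the differences below was not tested. Sex-linked signal did not match a single mouse on 3 arrays, those of wild-type replicate 1 and of knockout replicates 1 and 2: Xist, the RNA of the inactive X chromosome, read 11.79 to 11.83 and the Y-linked gene Eif2s3y 8.39 to 8.86. Of the remaining arrays, wild-type replicate 2 had Xist alone and both arrays of replicate 3 had the Y-linked signal alone. Whether each array holds 1 mouse is therefore unknown here, and limma's errors measure the spread between these arrays.

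For all 6 genes the knockout and wild-type ranges did not overlap, which the choice of the genes favours; 8.70% of all 22180 genes had this property. Rsad1, Nags, C130046K22Rik and Igfbp4 read lower on every knockout array, as 5.18% of all genes did, and Rapgefl1 and B4galnt2 read higher on every knockout array, as 3.52% did. By the mean over all 6 arrays, none of the 6 was in the dim 30% of probe sets, but Rapgefl1 passed that limit of 5.70 only through its knockout arrays, its wild-type mean being 5.65. Across the array, limma with Benjamini-Hochberg adjustment called 0 of 41345 probe sets at an adjusted p of 0.05, a background of 0%, while 2033 (4.92%) had an unadjusted p under 0.05.

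**Figure D1:**
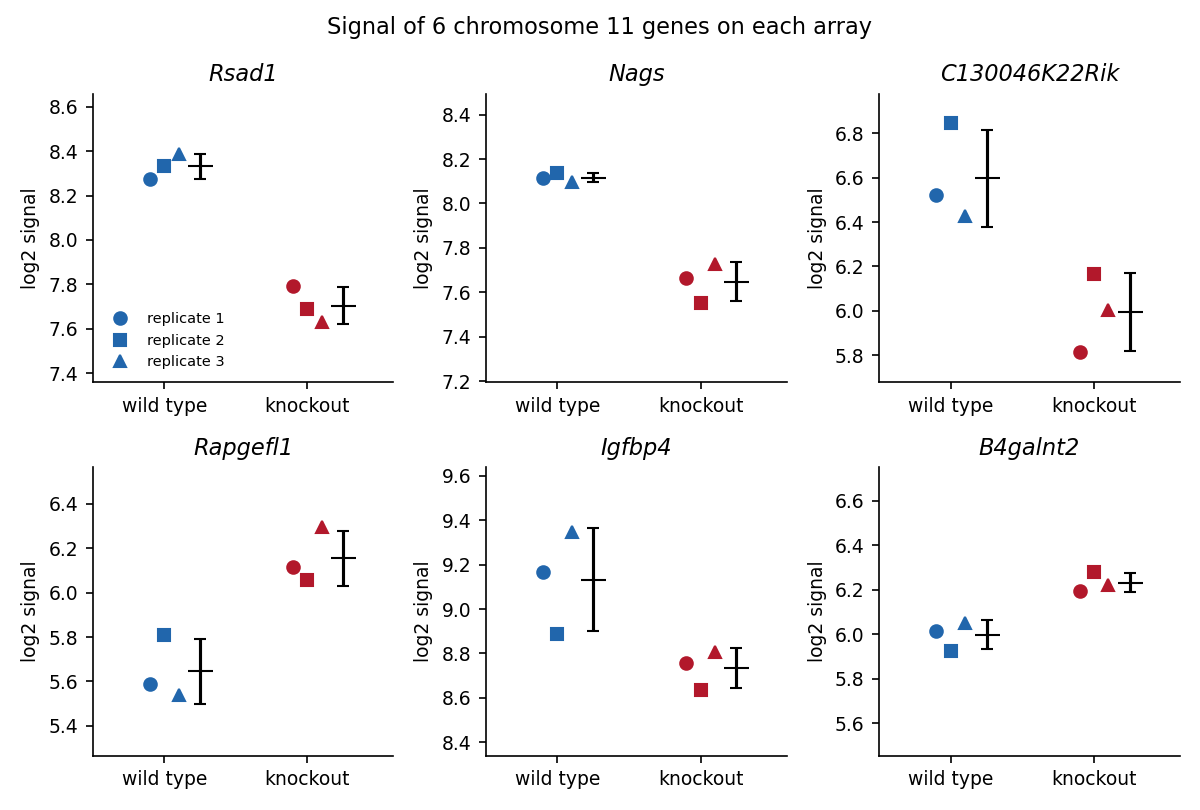
Log2 signal of the 6 genes on each of the 3 wild-type (blue) and 3 knockout (red) arrays, with the replicate number as the symbol and the group mean ± SD in black. Each panel spans 1.3 log2 units, and in each the groups do not overlap; the gap is widest for Rsad1 (0.48) and narrowest for Igfbp4 (0.08).

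Among the enzymes, Rsad1 showed the widest separation. Its signal in replicate order was 7.79, 7.69 and 7.63 for knockout and 8.27, 8.33 and 8.39 for wild type. The highest knockout array was 0.48 below the lowest wild-type array. The group means were 7.70 ± 0.08 and 8.33 ± 0.06, a difference of -0.63 (SE 0.09, n = 3 per group), or 1.54-fold. This was 8.86 times the pooled SD within groups. Between knockout replicate 3 and wild-type replicate 3, which both had Y-linked signal alone, the difference was -0.75. Among the arrays with both signals it was -0.53. Groups that do not overlap fix the sign within both classes, so only the sizes are described.

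Nags read 7.66, 7.55 and 7.73 in knockout and 8.11, 8.14 and 8.10 in wild-type mice. The wild-type SD was the smallest of any group among the 6 genes. The means of 7.65 ± 0.09 and 8.12 ± 0.02 differed by -0.47 (SE 0.09), or 1.38-fold. Nags is the one gene of the 6 with another probe set of its symbol. That dimmer probe set read 6.13, 5.77 and 5.87 in knockout and 6.20, 6.27 and 6.17 in wild-type arrays, and its groups differed by -0.29 (SE 0.12). Both probe sets were lower on every knockout array than on every wild-type array, the dimmer one by a narrow gap. The mean of both gave -0.38 (SE 0.09). In RefSeq the non-coding gene Gm11586 overlaps Nags from the opposite strand, and which of them each probe set reads is unknown here.

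B4galnt2 had the smallest difference. It read 6.20, 6.28 and 6.22 in knockout and 6.02, 5.92 and 6.05 in wild-type arrays. The gap between the lowest knockout and the highest wild-type array was 0.15. The means of 6.23 ± 0.04 and 6.00 ± 0.07 differed by 0.24 (SE 0.09), or 1.18-fold. In size this ranked 2206th of the 22180 genes, and its arrays lay close together within each group.

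Of the signalling genes, Igfbp4 read 8.76, 8.63 and 8.81 in knockout and 9.17, 8.89 and 9.35 in wild-type arrays. Wild-type replicate 2 was 0.08 above the highest knockout array, so the separation rests on a narrow margin. The means of 8.73 ± 0.09 and 9.13 ± 0.23 differed by -0.40 (SE 0.14), or 1.32-fold. The difference was -0.52 without wild-type replicate 2 and -0.29 without wild-type replicate 3. Igfbp4 is also made by stromal cells. The endothelial and stromal marker list had a mean signal of 6.30 to 6.50 in knockout and 6.24 to 6.50 in wild-type arrays, with 7 of 11 genes lower, a median difference of -0.02 and Cdh5, Emcn, Lepr and Kitl dim. Of that list the collagen gene Col1a2 read 6.73, 6.59 and 6.42 in knockout and 7.04, 6.92 and 6.94 in wild-type arrays. Of the 4 higher genes, Cxcl12 differed by 0.35 (SE 0.29) and Bglap by 0.21 (SE 0.25). The part of such cells in the Igfbp4 difference was not tested.

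Rapgefl1 had the largest higher signal of the 6. It read 6.11, 6.06 and 6.29 in knockout and 5.59, 5.81 and 5.54 in wild-type arrays. Wild-type replicate 2 was the nearest to the knockout arrays, at a distance of 0.24. The means of 6.15 ± 0.12 and 5.65 ± 0.15 differed by 0.51 (SE 0.12), or 1.42-fold. Its wild-type mean was below the dim limit of 5.70, where array signal can compress a difference in RNA.

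The non-coding RNA C130046K22Rik read 5.81, 6.16 and 6.01 in knockout and 6.52, 6.84 and 6.43 in wild-type arrays. Replicate 2 was the highest array in both groups. The means of 5.99 ± 0.18 and 6.60 ± 0.22 differed by -0.60 (SE 0.15), or 1.52-fold. In size this ranked 101st of 22180 genes, next to Rsad1 at 86th, with Rapgefl1 at 195th, Nags at 258th and Igfbp4 at 457th.

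Differences within same-numbered arrays kept one sign for each gene. Those of Rsad1 were -0.48, -0.65 and -0.75 for numbers 1 to 3, those of Nags -0.45, -0.58 and -0.37, and those of C130046K22Rik -0.71, -0.68 and -0.42. Igfbp4 gave -0.41, -0.25 and -0.54, Rapgefl1 0.53, 0.24 and 0.76, and B4galnt2 0.18, 0.36 and 0.17. Sign follows from groups that do not overlap; the size varied most for Rapgefl1.

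**Figure D2:**
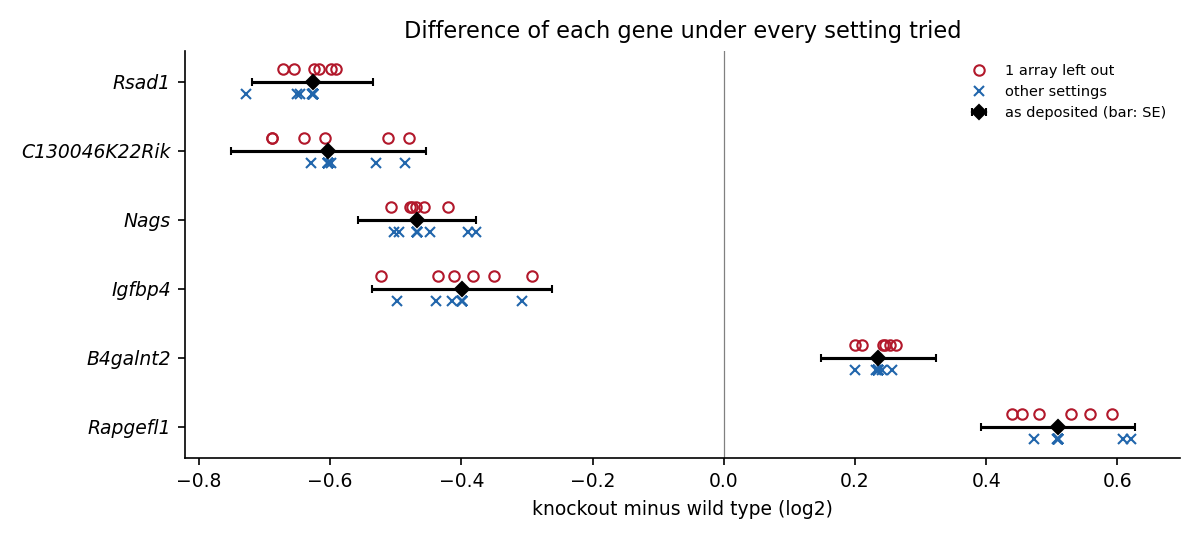
Difference of each gene, knockout minus wild type in log2 units, with the arrays as deposited (black, bar: SE), with 1 array left out (red circles) and under the other settings tried (blue crosses). All points of a gene lie on the same side of 0, which groups that do not overlap favour. Those of Igfbp4 with 1 array left out span -0.52 to -0.29.

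The nearest measured gene on either side of each made 12 neighbours. Both had the sign of their member for Rapgefl1, Igfbp4 and B4galnt2. Their differences ranged from 0.03 to 0.25 in size, 7 of 12 had the sign of their member, and limma gave 0 of 12 at an unadjusted p under 0.05, where 3.13% of all genes had one. Beside Rsad1, Mycbpap differed by -0.03 and the acyl-CoA synthetase gene Acsf2 by 0.16. Beside Nags, the gut hormone gene Pyy differed by 0.03 and Tmem101 by 0.05. Beside C130046K22Rik, the Golgi SNARE gene Gosr2 differed by 0.14 and Wnt9b by 0.05. Rapgefl1 lay between Msl1 (0.20) and Wipf2 (0.14), and Igfbp4 between Top2a, the DNA topoisomerase of dividing cells (-0.08), and Tns4 (-0.25). B4galnt2 lay between 4833417C18Rik (0.09) and the incretin gene Gip (0.04).

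Within 10 Mb of Tbx21, 417 other genes were measured and 4 had an unadjusted limma p under 0.01: Rsad1, Rapgefl1, Nags and C130046K22Rik. The background over all genes was 0.401%, and nothing is read from the 4 because the choice used this contrast. With replicate number as a block the 4 (0.959% of the 417, against 0.417% of the other placed genes) were Rsad1, Nags, C130046K22Rik and Mir5119, without Rapgefl1. With sex-linked class as a block (0.959% against 0.301%) they were Rsad1, Rapgefl1, Igfbp4 and Tcap, without Nags and C130046K22Rik. Rsad1 was the one gene called in all 3 fits, which share the same arrays and the contrast used for the choice. By the size of limma's statistic, 6 and 7 non-member genes stood ahead of Igfbp4 and B4galnt2, and none ahead of the other four. By the size of the difference, 1 non-member stood ahead of Rsad1 and of C130046K22Rik, 2 ahead of Rapgefl1, 4 ahead of Nags, 5 ahead of Igfbp4 and 39 ahead of B4galnt2; Gm11543 (0.64, SE 0.25, dim) and Nme1 (0.55, SE 0.39) were the 2 ahead of Rapgefl1. The closest genes outside the choice were Mir5119 (-0.51, SE 0.15), the titin-cap gene Tcap (-0.40, SE 0.12), the keratin-associated protein gene Krtap3-1 (-0.33, SE 0.10) and G6pc3, a glucose-6-phosphatase catalytic subunit gene (-0.27, SE 0.09). With Gm11627 (-0.30), Pnmt (-0.29) and Rundc3a (-0.32), all 7 non-member genes ahead of B4galnt2 were lower on every knockout array than on every wild-type array. Taking them by the size of limma's statistic favours this, and 5.18% of all genes had this property. G6pc3, Rundc3a and Gm11627 lay 187, 195 and 201 genes from Tbx21, in the part of the order that holds Nags at 184. Mir5119, Tcap, Pnmt and Krtap3-1 lay 29, 33, 34 and 74 genes from Tbx21. Positions were read after ranking on the contrast used for the choice, and their spread was not tested.

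**Figure D3:**
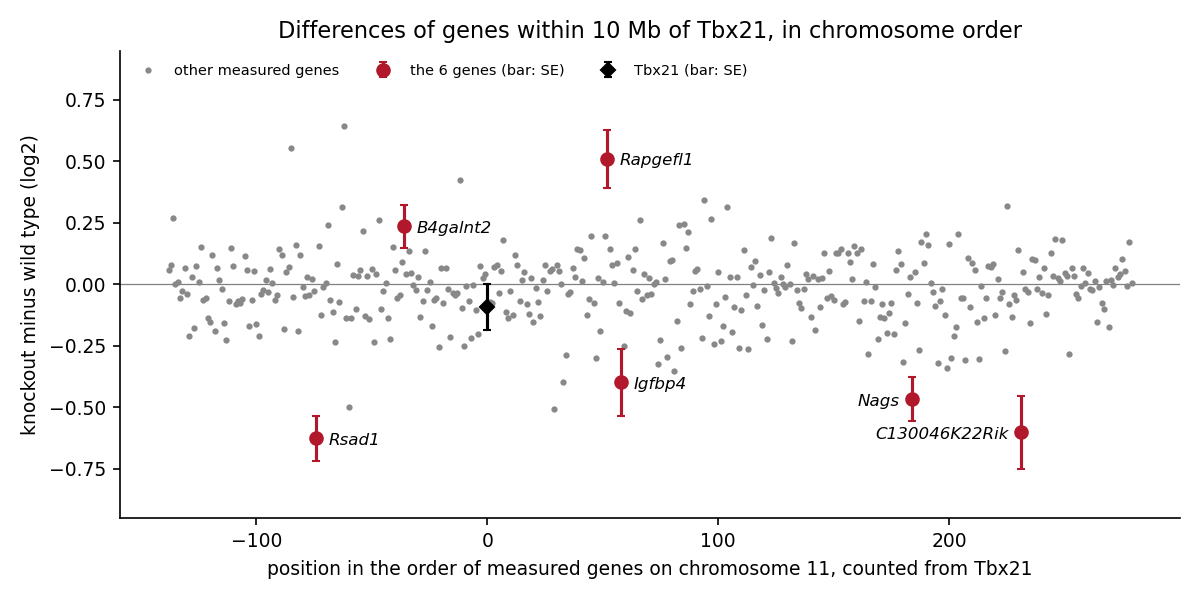
Difference of every measured gene within 10 Mb of Tbx21, knockout minus wild type in log2 units, in chromosome order and counted in genes from Tbx21 (black diamond). Of the 6 genes (red, bar: SE), Rsad1 at -0.63 and Rapgefl1 at 0.51 are the outermost; among the other genes Gm11543 at 0.64 and Nme1 at 0.55 stand highest.

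The groups did not overlap for 61 of the 417 genes in the window (14.6%), among them the 6, and for 8.59% of the other placed genes. Without the 6 it was 55 of 411 (13.4%). Of these, 36 were lower in the knockout (8.76%, against 5.09% of the other placed genes) and 19 higher (4.62% against 3.50%). After median centring of the arrays, 46 of the 417 genes (11.03%) had groups that did not overlap, against 8.15% elsewhere. The 6 picked genes are among these 46, and the gap is narrower than 14.6% against 8.59%. The median difference of the window was -0.01, its median size was 0.07, and the median size elsewhere was 0.07 as well. These shares include the members or were taken after removing them, so no test was made.

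The pathways and families to which the 6 belong were read from the same fit. Over 6 lists with 93 measured genes, members left out, limma's adjusted p was 1 for every gene and 0 passed (background 0%). At an unadjusted p under 0.05 there were 2, 1 lower and 1 higher, or 2.15% against 3.13% of all genes (1.70% lower and 1.44% higher). The median difference over all genes was -0.00.

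Of 16 measured urea cycle, glutamate and ornithine genes, 11 had a negative and 5 a positive difference, with a median of -0.02. Otc, the urea cycle enzyme ornithine transcarbamylase, read 4.80 ± 0.06 in knockout against 5.05 ± 0.09 in wild-type arrays, in the dim range (difference -0.25, SE 0.09). Arg1, the arginase that ends the cycle, differed by -0.15 and the mitochondrial aspartate-glutamate carrier gene Slc25a12 by 0.10. Among 19 genes of the insulin-like growth factor axis, 12 were negative and 7 positive, with a median of -0.01. Igf1, a ligand that Igfbp4 binds, read 6.98 ± 0.12 in knockout against 6.72 ± 0.09 in wild-type arrays (difference 0.26, SE 0.10). The acid-labile subunit gene Igfals differed by -0.35 (SE 0.16) and the binding protein gene Igfbp3 by 0.18.

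Of 22 measured RAP GTPase genes, 7 were negative and 15 positive, with a median of 0.02; the GTPase gene Rap2a differed by 0.18, and the GTPase-activating protein genes Rap1gap and Sipa1l2 by -0.19 and -0.13. Of 7 radical SAM enzyme genes, 2 were negative and 5 positive, with a median of 0.01. The tRNA-modifying enzyme gene Cdk5rap1 differed by -0.19, the antiviral gene Rsad2 by 0.23 and the molybdenum cofactor gene Mocs1 by 0.06. Of 22 glycosyltransferase genes, 11 were negative and 11 positive, with a median of 0.01; A4galt differed by -0.29 at dim signal, B4galt5 by 0.19 and St3gal5, the GM3 ganglioside synthase gene, by 0.09. Heme synthesis, listed because Rsad1 is related to a heme chaperone, had 2 negative and 5 positive differences among 7 measured genes and a median of 0.11. Leaving out knockout replicate 3 gave a median of 0.03, leaving out wild-type replicate 1 gave 0.06, and it was 0.17 without the arrays carrying both Xist and Y-linked signal. Ppox, Urod and Fech, 3 enzymes of that pathway, differed by 0.15, 0.11 and 0.17.

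**Figure D4:**
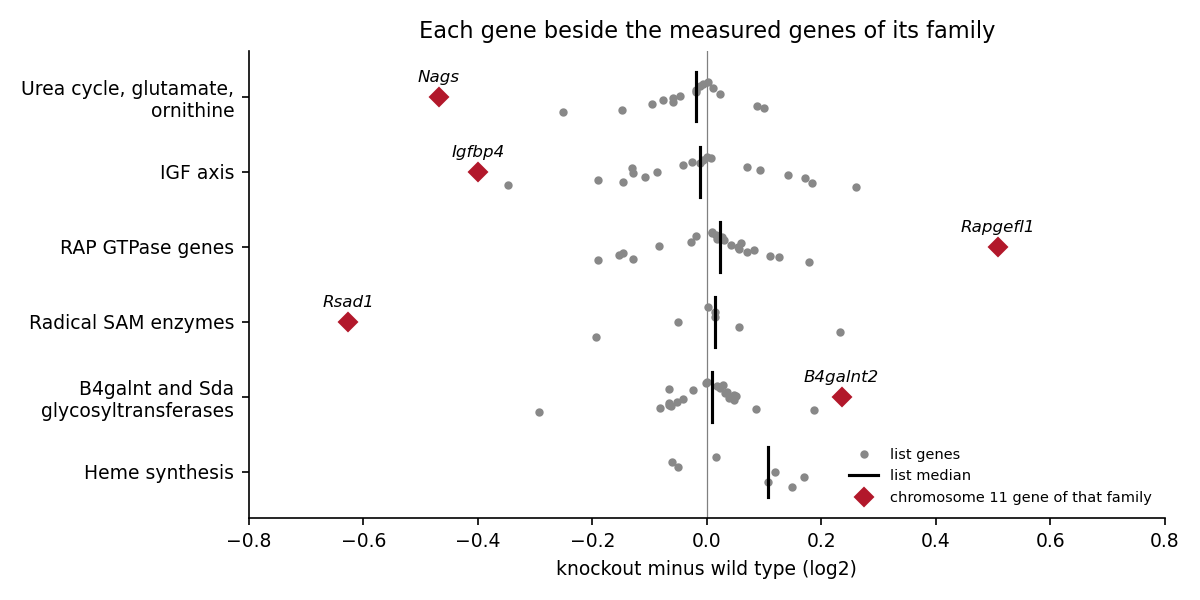
Difference of each gene, knockout minus wild type in log2 units, for the 6 lists (grey points, each 1 gene; black bar, list median) and for the chromosome 11 gene of that family (red diamond). The red diamonds of Rsad1, Nags, Igfbp4, Rapgefl1 and B4galnt2 lie outside the range of their own list. The choice of these genes on this difference favours that, and the list genes were not so chosen. The list medians lie between -0.02 and 0.11.

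Deviations from the group mean were correlated over the 6 arrays for the 15 pairs of genes, with 2 group means taken out, as a description. Of the 15, 5 were positive, the median was -0.20, and the values ran from -0.86 for C130046K22Rik and Igfbp4 to 0.74 for Nags and Rapgefl1. The genes elsewhere with the most similar deviations, the highest of 16290 values for each member outside the dim range, were Nup210l, Shb and Galnt15 for Rsad1 (r of 0.997, 0.995 and 0.994). For Nags they were Zfp512b, Mpv17l and Lrrcc1 (0.998, 0.996 and 0.995). For C130046K22Rik they were Nampt, Uba7 and Oas3 (0.999, 0.999 and 0.996), and for Rapgefl1 Hif1a, Efcab5 and Scnm1 (0.999, 0.998 and 0.997). For Igfbp4 they were Syde1, Dcxr and Ly6e (0.9997, 0.997 and 0.996), and for B4galnt2 Eomes, Tnfrsf17 and Rnft2 (each 0.992). Efcab5 and Dcxr were the 2 of these 18 genes on chromosome 11. With 6 arrays and 2 group means taken out, the highest of 16290 values can lie near 1 without any relation between the genes. Nothing is read from these names.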

How the data were processed

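The authors deposited log2 signals of 41345 probe sets on 6 arrays. The submitters' processing notes name Affymetrix Expression Console, version 1.4.1.46. The log2 scale was inferred from the values. How background was corrected and how arrays were normalized and probes summarised is not stated in the labels. Scanner intensities and detection calls were not analysed here, so which probe sets lie above background is unknown, and 3 arrays per group limit the precision. An annotation table gave 1 symbol for 23521 probe sets, several for 1814 and none for 16010. Symbols were updated by gene ID, and genes were ordered, through a RefSeq table of GRCm38.p6, which held 23328 of the 23521; the array table names no build. Distances were taken between gene bodies.

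Differences, knockout minus wild type, were fitted over all probe sets with limma 3.58.1 (lmFit, eBayes) in R 4.3.3, without pairing, with Benjamini-Hochberg adjustment. The fit was tested on simulated data. The genes described, the lists and the classes of sex-linked signal were chosen with earlier results of these data known. Named genes were the 6, Tbx21, the nearest measured gene on each side of each, the 4 non-members of the window with the largest limma statistic, the 3 most similar genes per member and the 3 genes of each list with the largest statistic. Gm11543, Nme1, Gm11627, Pnmt, Rundc3a, Itga2b, Pf4, Cd36, Col1a2, Cxcl12 and Bglap were named after their values were seen. The other cell type lists had overlapping group ranges: B cell 6.80 to 7.44 in knockout and 6.51 to 7.01 in wild type, T and NK cell 6.16 to 6.28 and 6.17 to 6.23, granulocyte and monocyte 5.72 to 6.04 and 5.75 to 5.87, macrophage 6.16 to 6.34 and 6.26 to 6.35, stem and multipotent progenitor 6.64 to 6.83 and 6.77 to 6.95. Their part in any difference was not tested.

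Replicate numbers run 1 to 3 in both groups. Deviations of same-numbered arrays from their group means correlated at 0.285, 0.116 and 0.115 over 22180 genes, above 0.1 in each, so the numbers were taken as pairs in 1 alternative. Other alternatives changed the scaling, array weights, variance model, filter, probe set, window and arrays used.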

Additional observations from a re-analysis of the deposited data

How the results depend on the processing

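The direction of all 6 genes was the same in each of the 16 alternatives run for it. Where arrays were left out, weighted or blocked, groups that do not overlap fix this sign, so it is no support. An alternative chosen after seeing the data left out the arrays carrying both Xist and Y-linked signal. It set knockout replicate 3 against wild-type replicates 2 and 3, and Rsad1 differed by -0.73 and Nags by -0.39. The lone knockout array is assumed there to vary like the wild-type arrays, so only the sizes are given. Nags differed by -0.38 as the mean of its probe sets. With 1 array left out the differences ran from -0.67 to -0.59 for Rsad1, -0.51 to -0.42 for Nags, -0.69 to -0.48 for C130046K22Rik, -0.52 to -0.29 for Igfbp4, 0.44 to 0.59 for Rapgefl1 and 0.20 to 0.26 for B4galnt2. With the replicate block the differences were those given above, since each number holds 1 array per group (Rsad1 -0.63), and 0 probe sets were called; the genes of the window it called are given above. With sex-linked class as a block, where wild-type replicate 2 is alone in its class and drops out, they ran from -0.63 for Rsad1 to 0.61 for Rapgefl1.

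The 4 genes of the window with an unadjusted p under 0.01 became 7 when only named probe sets were fitted, which adds Mir5119, Tcap and Krtap3-1 (147 elsewhere against 84). In a window of 5 Mb there were 2 (0.738%, against 0.396% elsewhere). With 1 array left out there were 3 to 5 (0.719% to 1.20%, against 0.209% to 0.668% elsewhere). The members are counted in these shares. Probe sets past an adjusted limma p of 0.05 numbered 1 after median centring of the arrays, 1 under limma's array weights and 0 to 2 with 1 array left out (2 without knockout replicate 3). The counts of genes whose groups do not overlap were added after seeing the data and include the picked genes. A window of 5 Mb gave 45 of 271 (16.6%, against 8.59% outside 10 Mb). A window of 20 Mb gave 84 of 713 (11.8% against 8.60%). Leaving out the picked genes gave 41 of 267 (15.4%) at 5 Mb and 78 of 707 (11.03%) at 20 Mb. With the picked genes kept, there were 53 of 348 without dim probe sets (15.2% against 7.96%). After a further quantile normalization there were 60 of 417 (14.4% against 10.2%), again with the picked genes. Family genes past the adjusted threshold numbered 0 in every alternative, and the medians of the 5 lists other than heme synthesis lay between -0.06 and 0.08. The causes of these shifts were not tested. Only 3 arrays per group and dim signals limit what can be seen.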
